A study of Homo sapiens with 6 samples.

Results

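The transducin-like enhancer of split (TLE) genes encode the human Groucho corepressors, and 5 of them, TLE1, TLE2, TLE3, TLE4 and AES (now named TLE5), are described here in INA-6 myeloma cells. The 5 genes were selected by their symbols in the platform's probe table, out of 17411 genes, and they hold 9 of the 27216 probes with a symbol on an array of 243504 spots. The family was taken up because a TLE3 probe had differed between the groups in an earlier analysis of the same 6 arrays. The member probes were part of the fit across all probes, but because of this choice their differences and calls are given as a description, and no test result is read from them.

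INA-6 is a cultured line of malignant human plasma cells (multiple myeloma) that needs the cytokine interleukin-6 (IL-6) in its medium. Binding of IL-6 to its receptor activates the transcription factor STAT3, by far the main route of the signal in this line. Total RNA came from 3 samples of cells that had been without IL-6 for 13 h and then received it again for 1 h (restimulated), and from 3 samples after 13 h without IL-6 (withdrawn). Both groups had thus gone through the withdrawal, and cells kept in IL-6 throughout were not analysed here. The labels call the samples of a group biological replicates, but all of them come from 1 cell line, and a single time after restimulation was measured. Each sample was hybridized to its own single-color array, and the deposited values are quantile-normalized log2 intensities, so every difference is relative to the average spot of the array.

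Groucho/TLE proteins do not bind DNA by themselves. They are brought to target genes by DNA-binding repressors such as the LEF/TCF factors of the Wnt pathway, the HES factors of the Notch pathway and RUNX and PAX proteins, and they silence these genes with histone deacetylases. TLE1 to TLE4 are full-length proteins with an amino-terminal domain through which they form oligomers and a carboxy-terminal WD-repeat domain that contacts the recruiting factors, whereas AES is a short relative without the WD repeats that can modulate the full-length proteins. In B-lineage cells TLE4 is known as a partner of PAX5, and PRDM1 (Blimp-1), the repressor that directs plasma cell differentiation, can recruit Groucho proteins.

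In the RefSeq annotation of GRCh38.p14, TLE1 (chr9:81583683-81689547) and TLE4 (chr9:79571965-79726882) lie on chromosome 9, TLE2 (chr19:2997644-3047635) and AES (chr19:3052910-3062966) lie next to each other on chromosome 19, and TLE3 (chr15:70047790-70097917, minus strand) lies on chromosome 15. The RefSeq promoter table of that build held 10 windows of the 5 genes, each from 250 bases before to 50 bases after a transcript start. The palindrome TTCNNNGAA, the core to which STAT proteins bind, was in 0 of the 10 windows and in 7.66% of all 35116 windows. The E-box CACGTG, the core of sites for BHLHE40 and related factors, was in 1 of the 10 windows and in 7.26% of all windows. That window belonged to the outermost start of TLE3, which had 3 of the 10 windows, and the other TLE3 windows lacked the E-box. The 250 bases before this start are shown here with the E-box, which begins 68 bases before the start, in capitals. Both motifs are palindromes, so 1 search covers both strands.
TLE3 promoter, GRCh38.p14 chr15:70097918-70098167, minus strand: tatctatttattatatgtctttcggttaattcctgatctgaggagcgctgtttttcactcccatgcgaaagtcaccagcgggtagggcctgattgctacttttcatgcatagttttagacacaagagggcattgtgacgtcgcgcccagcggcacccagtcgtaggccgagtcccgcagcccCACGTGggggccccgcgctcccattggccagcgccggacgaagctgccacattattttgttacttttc
Of these bases, 53.6% were G or C, and the stretch held 17 CG dinucleotides. A match of letters is a description only, and the absence of a match says nothing about a factor outside the window.

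The arrays resembled each other across the series. The array medians lay between 6.84 and 6.85, but quantile normalization makes them nearly equal, so they say nothing about quality. Correlations between arrays over all spots were 0.991 to 0.994 among restimulated samples, 0.986 to 0.993 among withdrawn samples and 0.982 to 0.990 across the groups. The main axis of variation (principal component 1) held 40.1% of the variance. Restimulated samples 1, 2 and 3 stood at -61.4, -46.0 and -22.0 on it, and the withdrawn samples at 40.2 to 44.8. Probes brighter than the median spot on 3 or more of the 6 arrays were tested with limma, and a probe was called at a Benjamini-Hochberg adjusted p below 0.05 over all 122102 tested probes, which 1.83% of them reached. All 6 of 6 genes listed as a check of the IL-6 response were called higher in restimulated cells, beside 0.417% of all tested genes. Their differences ran from JUNB by 1.13 to SOCS3, the feedback inhibitor of the IL-6 receptor, by 3.87 on the log2 scale. This list was written with earlier results of the series known, so the count is a description and no independent check. BCL6, 1 of the 6, lay above the array median only on the restimulated arrays. Of 10 plasma cell markers 9 were tested, among them SDC1 at 11.23 in restimulated and 11.39 in withdrawn cells (group means, log2), and 2 of the 9, PRDM1 and POU2AF1, were called higher. Of 10 markers of other cell types 5 were tested, and 0 of the 5 were called. The 5 lay above the array median in both restimulated and withdrawn cells. They were the T-cell gene CD3E (9.22 and 9.40), the monocyte gene CD14 (9.33 and 9.88), GFAP (8.64 and 8.63), HBB (7.34 and 7.22) and ALB (6.93 and 6.99). The others, LYZ, MPO, PECAM1, EPCAM and COL1A1, lay above the array median on at most 1 of the 6 arrays. All samples came from 1 cultured line, and what the signal at CD3E, CD14, GFAP, HBB and ALB reflects was not tested.

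TLE3 was the member whose values separated the groups. TLE3 is a full-length corepressor, known in adipocytes as a cofactor of PPARG. Its brighter probe, 137581, had log2 intensities of 10.00, 10.17 and 10.01 in the 3 restimulated samples, against 9.25, 9.40 and 9.19 in the 3 withdrawn samples. Every restimulated array lay above every withdrawn array, and the lowest restimulated array exceeded the highest withdrawn array by 0.60. The group means were 10.06 ± 0.10 in restimulated and 9.28 ± 0.11 in withdrawn cells (SD, n = 3 each). The log2 difference was 0.78 ± 0.08 (SE), with a 95% interval from 0.57 to 0.99, or 1.72-fold with an interval from 1.48 to 1.99. Among the 18613 tested probes with a symbol, 67 (0.360%) had a higher difference. The family was chosen for a difference at a TLE3 probe, so this rank is a description only.

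The other TLE3 probe, 177899, is annotated to the same RefSeq transcript (NM_005078) and differed less. It had 8.37, 8.33 and 8.36 in restimulated samples and 8.15, 8.20 and 8.10 in withdrawn samples (log2). The groups again did not overlap, with a gap of 0.13. The log2 difference was 0.21 ± 0.05 with a 95% interval from 0.07 to 0.34, that is 26.5% of the difference at the brighter probe. The intervals of the 2 TLE3 probes did not overlap, which is likewise a description, since the family was chosen for a difference at TLE3. Withdrawn sample 3 was the lowest array at both TLE3 probes. The values of both probes correlated with r = 0.957 over the 6 arrays, mainly through the gap between the groups.

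**Figure D1:**
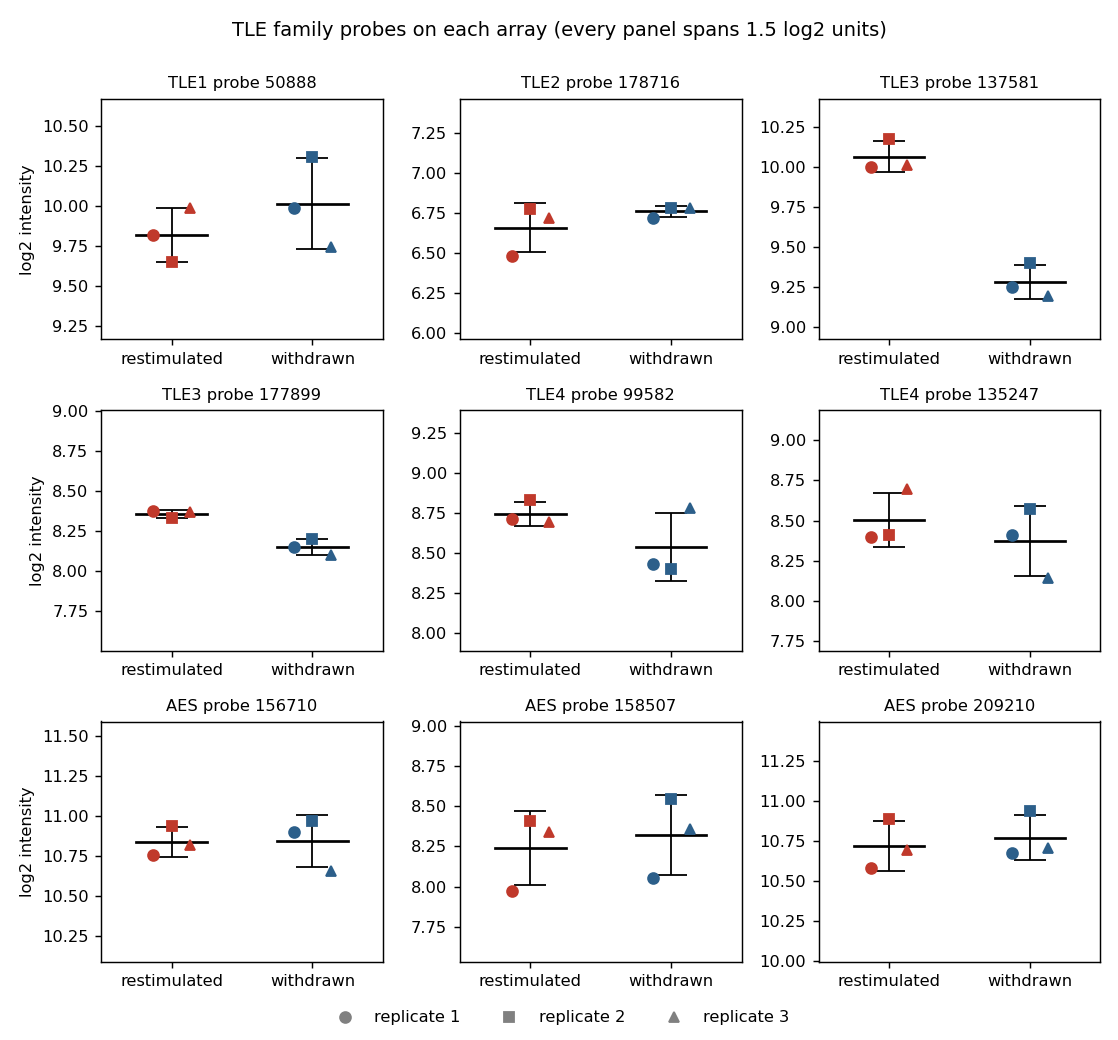
Log2 intensity of the 9 TLE family probes, 1 panel per probe, with the 3 restimulated samples in red and left of the 3 withdrawn samples in blue. Symbols mark the replicate number, black lines the group mean and error bars the SD. The groups lie apart in both TLE3 panels (gaps of 0.60 and 0.13) and overlap in the 7 others.

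TLE1, a full-length corepressor and a diagnostic marker of synovial sarcoma, had a difference of the opposite sign, with an interval that included 0. Its probe, 50888, had 9.81, 9.65 and 9.99 in restimulated samples and 9.99, 10.31 and 9.74 in withdrawn samples (log2). The groups overlapped, with withdrawn sample 2 the highest and restimulated sample 2 the lowest array. The log2 difference was -0.20 ± 0.17, with a 95% interval from -0.61 to 0.22.

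TLE2 lay below the median spot of every array. TLE2 is a full-length family member encoded beside AES. Probe 178716 had 6.48, 6.77 and 6.72 in restimulated samples and 6.72, 6.79 and 6.78 in withdrawn samples (log2), and it lay above the array median on 0 of the 6 arrays. It was not tested. The groups overlapped, and the log2 difference of -0.10 had a 95% interval from -0.32 to 0.11 in a fit of all spots.

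TLE4, the PAX5 partner, had 2 probes whose groups overlapped. Probe 99582 had 8.71, 8.83 and 8.69 in restimulated samples and 8.43, 8.40 and 8.78 in withdrawn samples (log2), with a difference of 0.21 ± 0.12 and a 95% interval from -0.09 to 0.50. All 3 restimulated samples lay above withdrawn samples 1 and 2, and the overlap came from withdrawn sample 3. Probe 135247 had 8.40, 8.41 and 8.70 in restimulated samples and 8.41, 8.57 and 8.14 in withdrawn samples, with a difference of 0.13 ± 0.14 and a 95% interval from -0.23 to 0.48. Here withdrawn sample 3 was the lowest array, and the 2 TLE4 probes did not follow each other across the 6 arrays (r = -0.374). The difference at the first TLE4 probe was as large as that at the dimmer TLE3 probe, but with a wider interval that included 0.

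AES, the short family member, had 3 probes with differences close to 0. The probe annotated to NM_198970, 156710, had 10.76, 10.94 and 10.82 in restimulated samples and 10.90, 10.97 and 10.66 in withdrawn samples (log2), with a difference of -0.0042 ± 0.10 and a 95% interval from -0.26 to 0.25. Of the 2 probes annotated to NM_198969, probe 209210 had 10.58, 10.89 and 10.69 in restimulated samples and 10.68, 10.94 and 10.71 in withdrawn samples, with a difference of -0.05 ± 0.11 and a 95% interval from -0.33 to 0.23. The groups overlapped at both. Probe 158507 had 7.97, 8.41 and 8.34 in restimulated samples and 8.05, 8.55 and 8.36 in withdrawn samples, with a difference of -0.08 ± 0.17 and a 95% interval from -0.51 to 0.35. The upper bounds of all 3 AES intervals, like those of TLE1, TLE2 and TLE4, lay below the lower bound at the brighter TLE3 probe. The AES intervals overlapped the interval of the dimmer TLE3 probe. Because the family was chosen for a difference at TLE3, this is a description and no test between the genes. With 1 array left out, each of the 3 AES differences changed its sign in at least 1 fit, so none has a settled direction. Withdrawn sample 2 was the highest array at all 3 AES probes and also at the probes of TLE1 and TLE2. The 3 AES probes correlated with each other over the 6 arrays with r between 0.336 and 0.860.

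**Figure D2:**
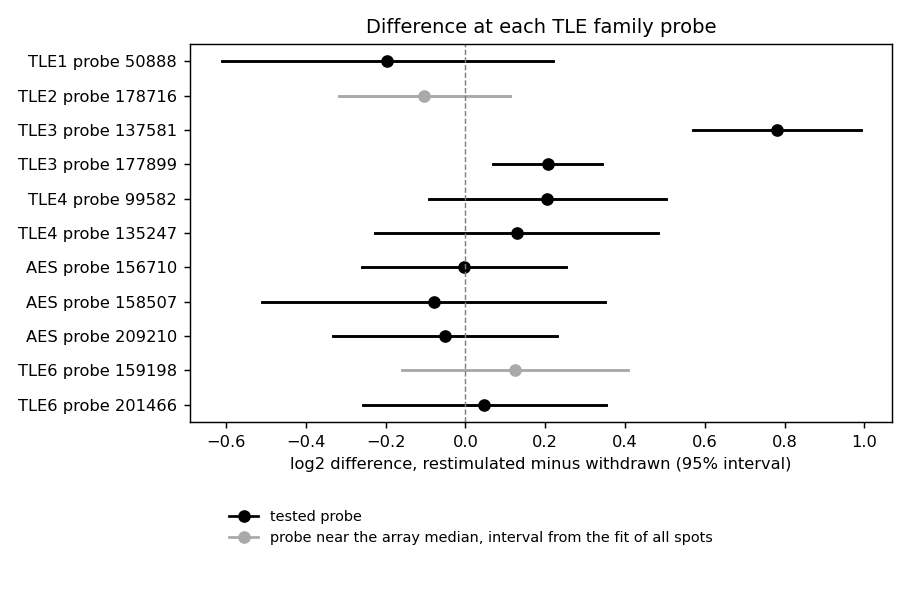
Log2 difference (restimulated minus withdrawn) at each probe of the family and of TLE6, with its 95% interval from the fit across all probes (n = 3 per group). The brighter TLE3 probe stands at 0.78, the dimmer one at 0.21, and the intervals of all probes other than the 2 of TLE3 include 0. Gray marks the 2 probes that were not tested.

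Of the 9 member probes 8 were tested, and 1, the brighter TLE3 probe, was called, beside 0.505% of all tested probes with a symbol. The groups did not overlap at 2 of the 8, both of TLE3, beside 11.7% of all tested probes with a symbol. Because the family was singled out from this contrast, nothing is read from either count. The TLE3 call did not hold in 5 of the 6 fits that each left out 1 array, in which the difference lay between 0.72 and 0.81, and it held without withdrawn sample 2 (0.84). Outside the 5 genes, TLE6, a diverged relative known from the oocyte's maternal complex, had a difference of 0.05 ± 0.12 at probe 201466 and was not called, and its probe 159198 was above the median on 1 array and not tested. TLE7 had no probe in the table.

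The members also differed in how much they varied among replicates. The SD within groups was 0.10 at the brighter and 0.04 at the dimmer TLE3 probe, against a median of 0.14 over all tested probes with a symbol. It was 0.23 for TLE1 and 0.24 at the AES probe 158507, where 87.5% and 89.4% of the probes with a symbol had a smaller SD. The remaining tested probes lay between these values, with 0.16 and 0.20 for the TLE4 probes and 0.13 and 0.15 for the other AES probes.

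The unequal differences at the 2 TLE3 probes was set beside other genes with several probes. When each gene was read from its brightest tested probe, 61 of 12703 genes (0.480%) were called, and 32 of them had at least 1 further tested probe. Of their 36 further probes 33 had the same sign and 17 were called, and the median difference was 83.6% of that of the brighter probe. In 6 of the 36 this percentage was smaller than the 26.5% of TLE3. These were further probes of ALG3, BCAN, JUNB, SOCS1, SOCS2 and PDGFRA, which were picked after their values were seen. At JUNB, an AP-1 factor of the IL-6 response, the brighter probe differed by 1.13 and the further probe by -0.13. Averaged over its 2 probes, TLE3 had a log2 difference of 0.49 ± 0.07, against 0.17 ± 0.07 for TLE4 and -0.04 ± 0.11 for AES. Which exons the probes match was not analysed here.

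**Figure D3:**
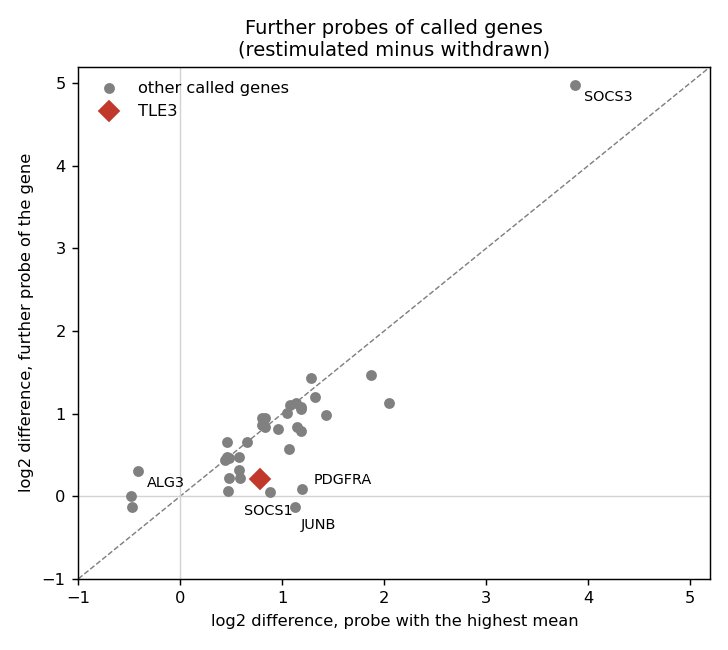
Log2 difference (restimulated minus withdrawn) of the brightest tested probe of a called gene (x axis) and of each further tested probe of the same gene (y axis), 36 points for 32 genes. The dashed line marks equal differences. TLE3 (red, 0.78 and 0.21) lies below the line, where also JUNB, SOCS1 and PDGFRA stand.

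The genes with which TLE proteins work mostly did not pass the test. In simulated data, with 67 planted changes of each of these sizes among 122102 probes, the fit recovered 38.8% of changes of 1 log2 unit and 2.99% of changes of 0.5. In the data 2239 probes were called, so the adjustment was less strict there. These shares thus do not give the sensitivity in the data. A gene that was not called may still have changed. In 5 lists of partners and pathway genes, which hold 105 genes, 70 were tested, 1 was called higher and 0 were called lower (limma, adjusted over all tested probes). Over all tested genes 0.417% were called higher and 0.0630% lower. The median difference was 0.03 over the 70 genes and 0.0080 over all 12703 tested genes.

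Of 32 DNA-binding factors that recruit TLE proteins, 30 had a probe and 15 were tested, with a median difference of 0.01. The 1 called was PRDM1. It had 10.72, 10.65 and 10.80 in restimulated samples and 9.39, 9.43 and 9.48 in withdrawn samples (log2). The groups did not overlap, and the difference was 1.29 ± 0.06 (limma adjusted p = 0.00329). HES5, an effector of Notch signaling, had a difference of -0.22 ± 0.09 (adjusted p = 0.359), and SIX3, a homeodomain repressor of the forebrain and eye, one of -0.23 ± 0.12 (adjusted p = 0.503). LEF1, the 1 of the 4 LEF/TCF factors that was tested, differed by -0.03, and PAX5, which is switched off in plasma cells, by 0.01. The PAX5 probe nevertheless lay above the array median on all 6 arrays, at 8.46 in restimulated and 8.45 in withdrawn cells (log2 means). The other LEF/TCF genes, TCF7, TCF7L1 and TCF7L2, and HES1 lay above the array median on at most 2 of the 6 arrays and were not tested. EN2 and HES7 stood at the ceiling of 16 on all arrays, where a difference cannot be seen.

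RUNX1, a hematopoietic factor that can recruit TLE proteins, was not called by its brightest probe, and is described because its further probes, examined after the counts, lay apart. The brightest, 185437, had 16, 15.67 and 15.44 in restimulated samples and 15.15, 14.56 and 16 in withdrawn samples (log2), so that 1 array of each group was at the ceiling. The groups overlapped there. Probe 36269 had 7.99, 7.80 and 7.94 in restimulated samples and 7.37, 7.48 and 7.41 in withdrawn samples, and the groups did not overlap. The difference was 0.49 ± 0.07 (limma adjusted p = 0.0412). It was 1 called among 45 further tested probes of the pathway genes, beside 0.505% of all tested probes with a symbol. Nothing is read from this count. In the 6 fits that left out 1 array each, without a filter on dim probes and with the replicate block, this probe was not called (limma adjusted p between 0.0527 and 0.231). Probe 228009 had 7.59, 7.38 and 7.14 in restimulated samples and 6.77, 6.63 and 6.78 in withdrawn samples, with a difference of 0.64 ± 0.13 (adjusted p = 0.0894). Its withdrawn values all lay below the array medians, so it was tested only through the restimulated arrays. It was called in 3 alternative fits, with the filter on variable probes, with the intensity trend and robust prior and without ceiling spots (limma adjusted p between 0.00968 and 0.0271). It was not called with the replicate block (0.241), without the filter on dim probes (0.119), with the changed centring (0.0511) or with any array left out (0.0675 to 0.262). At the brightest probe the difference of 0.47 rested on single arrays, and was 0.13 without withdrawn sample 2 and 0.85 without withdrawn sample 3.

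Of 20 corepressor partners and chromatin enzymes, such as the histone deacetylases and the SIN3 complex, 18 were tested and 0 were called, with differences from -0.14 to 0.29 and a median of -0.0093. The 3 with the smallest p were SIN3A, a scaffold of deacetylase complexes (0.25 ± 0.13), EZH2, the H3K27 methyltransferase (0.16 ± 0.10), and RBBP4, a histone chaperone (0.14 ± 0.11). HDAC1, the deacetylase to which Groucho proteins bind, had 12.46 in restimulated and 12.59 in withdrawn cells (log2 means). Of 14 enzymes known to modify TLE proteins 11 were tested and 0 were called, with differences from -0.11 to 0.15. The kinase HIPK3 (0.14 ± 0.06), the casein kinase subunit CSNK2B (0.15 ± 0.12) and the cell-cycle kinase CDK1 (0.10 ± 0.08) had the smallest p.

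Of 21 genes of the Wnt pathway and its TCF targets 16 were tested, and of 19 genes of the Notch pathway 10 were tested. In both lists 0 were called, with medians of 0.0015 and 0.04. DKK1, a secreted Wnt inhibitor and itself a TCF target, had 8.05, 8.05 and 8.33 in restimulated samples and 8.63, 9.05 and 8.74 in withdrawn samples (log2). Its groups did not overlap, and the difference was -0.66 ± 0.14 (limma adjusted p = 0.113). It was called in 4 alternative fits, with limma adjusted p between 0.0111 and 0.0334, the lowest with the filter on variable probes. In the other fits it was not called, among them those with the replicate block, without a filter on dim probes and with any array left out. The co-activator PYGO2 differed by 0.16 ± 0.08 and the TCF target MYC by -0.27 ± 0.15. Among the receptors, NOTCH1 differed by 0.32 ± 0.12 (adjusted p = 0.350), NOTCH3 by -0.19 ± 0.12 and NOTCH2 by 0.15 ± 0.12.

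**Figure D4:**
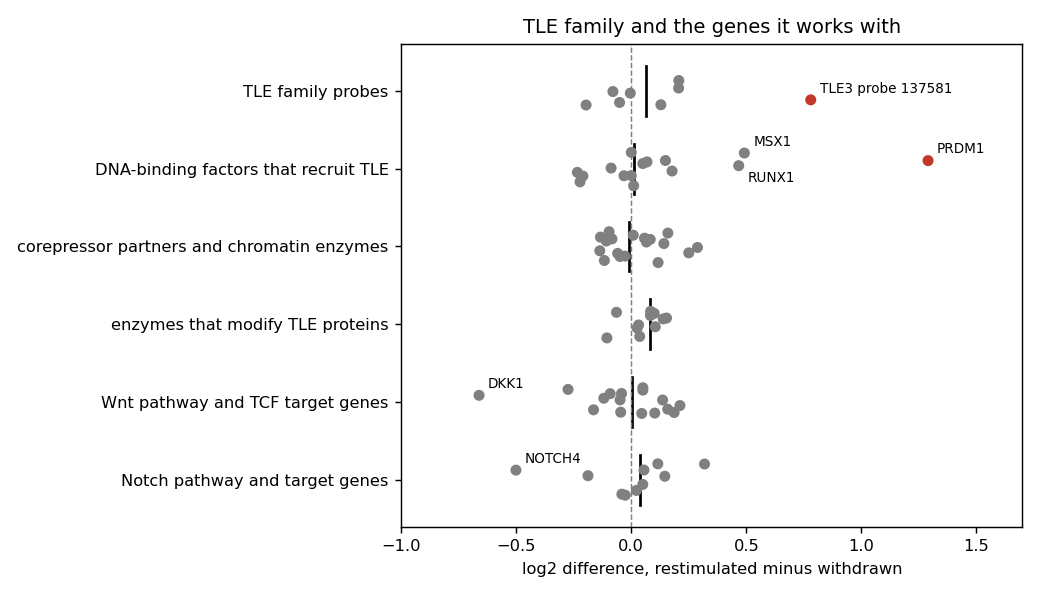
Log2 difference (restimulated minus withdrawn) of the 8 tested TLE family probes and of the tested genes of 5 lists, 1 point per probe or gene with a random vertical shift, with black bars at the medians. Red points were called (the brighter TLE3 probe at 0.78 and PRDM1 at 1.29), and names mark called points and differences beyond 0.45 in size.

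The genes whose values were most like those of the brighter TLE3 probe over the 6 arrays, among 12565 genes with varying values, were ID2 (r = 0.998), SOX2 (0.997), TMEM184B (0.996), ICAM1 (0.996) and RGS16 (0.993). With 6 arrays in 2 groups these values of r rest largely on the gap between the groups. ID2 is an inhibitor of basic helix-loop-helix factors, SOX2 a stem cell transcription factor, ICAM1 an adhesion molecule and RGS16 a regulator of G-protein signaling. ID2 had 10.82, 11.18 and 10.95 in restimulated samples and 9.73, 9.99 and 9.67 in withdrawn samples (log2), a difference of 1.19 ± 0.13. Like TLE3, all 5 genes had sample 2 as the highest array within each group. They were picked by r over these same 6 arrays, so this likeness restates the choice. The differences of the 5 lay between 0.42 for TMEM184B, which was not called, and 1.29 for ICAM1. The least like were C21orf87 (r = -0.990), RASL12 (-0.989) and S100A10 (-0.984), whose differences lay between -0.22 and -0.15 and were not called.

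**Figure D5:**
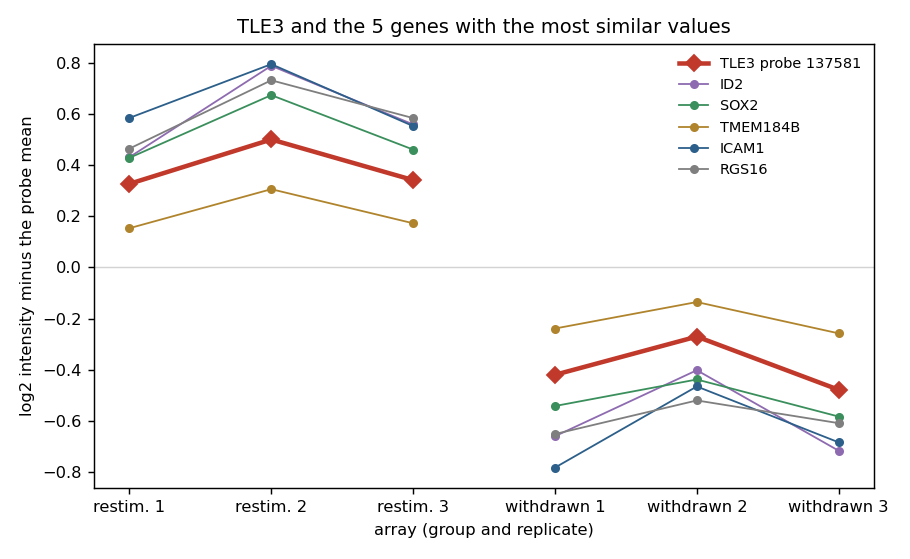
Log2 intensity minus the mean of the probe over the 6 arrays (y axis) for the brighter TLE3 probe (red) and the 5 genes with the highest r to it, by array (x axis, restimulated samples left of withdrawn samples). Lines join the arrays of 1 group and mark no order of the replicates. The 5 genes were picked by their likeness over these same arrays. All 6 probes lie above 0 on the restimulated and below 0 on the withdrawn arrays, with sample 2 highest within each group.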

How the data were processed

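RNA from 3 restimulated and 3 withdrawn INA-6 samples had been labeled with Cy3 after amplification with a random primer and hybridized to an Agilent custom array (nONCOchip). The authors deposited quantile-normalized log2 intensities, 1 value per spot and array, and limma with R 2.9.0 is credited to them by the submitters' processing notes. How background was corrected is not given in the sources. The number of arrays, 3 per group, limits the precision.

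Value rows were matched to probe numbers by the geometry of the spot grid. This match is an inference: it gave r = 0.506 for the mean level of 13495 probe pairs of the same gene, against r = 0.0085 with equal numbers. All gene names rest on it. Symbols were updated through a RefSeq table (GRCh38.p14), in which 23835 probes were found through their accession, 2495 through the symbol itself and 854 through an outdated one, and 32 were not found. Promoters came from RefSeq as well.

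Probes above the array median on at least 3 of 6 arrays were fitted in R 4.3.3 with the lmFit and eBayes functions of limma 3.58.1. Two-sided p-values were adjusted by the Benjamini-Hochberg method over all 122102 tested probes (threshold 0.05), and the replicate number was no block. The fit was tested on simulated data with known changes. It recovered 2.99% of 67 changes of 0.5 log2 units, 38.8% of 67 changes of 1 and 86.4% of 66 changes of 2. The simulation held far fewer changed probes than were called in the data, so these shares do not give the sensitivity there. SE and 95% intervals came from the main fit. Listed genes were read from their brightest tested probe. All member probes, TLE6 and TLE7, called genes of each list with the 3 of smallest p, and the 5 genes most and 3 least like TLE3 were to be named, and other genes were named after their values were seen. The members and lists were chosen with earlier results of these data known. The alternatives changed the filter, the variance prior, the treatment of ceiling spots, the centring, the probes per gene, the replicate block and the arrays included. P-values measure the spread between these samples only.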

Additional observations from a re-analysis of the deposited data

How the results depend on the processing

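At the brighter TLE3 probe the log2 difference was 0.78 with the replicate number as a block and 0.49 as the mean over the TLE3 probes, and in both fits TLE3 was no longer past the threshold. In the fits that left out 1 array it lay between 0.72 and 0.84. The count of called member probes, 1 in the main setting, was 0 with the replicate block, 0 with the mean over probes and 0 to 1 with 1 array left out. Under the other settings tried it was 1. All 3 AES probes changed the sign of their differences with 1 array left out, within -0.10 to 0.06 (probe 156710), -0.21 to 0.05 (158507) and -0.14 to 0.03 (209210). The probes of TLE1, TLE3 and TLE4 did not change sign under the settings tried. The called genes of the partner lists were 1 in the main setting (PRDM1), 2 (PRDM1 and DKK1) with a filter on an interquartile range above 0.5, with an intensity trend and robust prior, without the spots at the ceiling on all arrays and with centring on probes with a symbol, 1 with any array left out and 0 with the replicate block. The count of called probes of the whole table was 2239. It was 1324 with probes above the median on all 6 arrays, 3590 with the interquartile filter, 3860 with the trend and robust prior, 3580 without ceiling spots, 31 genes with 1 probe per gene, 35 genes with the mean over probes, 0 with the replicate block and 320 to 1042 with 1 array left out. The fits on genes tested 12703 genes, and the cause of the other changes was not tested. Deviations of same-numbered samples correlated with r = -0.011, -0.072 and -0.258, and 0 of the 6 arrays correlated best with its own number. So few arrays cannot exclude a pairing, and the labels do not say whether the replicate numbers pair the samples.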
